A study of Sus scrofa with 27 samples.

Results

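The genes described here are members of the cellular response to low oxygen and of glycolysis in pig lungs kept on ex vivo lung perfusion (EVLP), a procedure in which a donor lung is ventilated and perfused outside the body. Of 10 genes listed, 8 were found by their gene name among the 31908 genes of the count table, namely HIF1A, EGLN3, HK2, PFKFB3, LDHA, PGK1, ADM and BNIP3, and each of the 8 had more than 10 counts in every one of the 27 libraries. SLC2A3 had no gene name in the table and was recognised by its NCBI gene number, so its values are set beside those of the 8 named members and left out of their counts. SLC2A1 had no row of its own, and its RefSeq locus (chromosome 6, 168535398 to 168561170, plus strand) lies inside the interval that the table gives to P3H1 on the same strand (168534655 to 168690095), so no value is given for SLC2A1.

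The lungs came from 9 Large-White pigs in a non-heart-beating donor model, were kept cold, and were then perfused without blood cells by the Toronto protocol. In both groups the circuit held Steen solution with methylprednisolone, cefuroxime and heparin, so both groups met the same glucocorticoid during EVLP. The Gold Standard (GS) group of 5 pigs (9, 17, 44, 55 and 77) had part of the perfusate replaced at intervals, and the Pediatric Dialysis (PD) group of 4 pigs (2, 3, 4 and 5) had a pediatric dialysis membrane on the circuit instead. Each pig gave a lung biopsy after cold ischemia (0h) and after 6h and 12h of EVLP. The 0h biopsies preceded the circuit and its glucocorticoid. In a change from 0h, EVLP and these drugs thus cannot be told apart. The PD lungs had also served in an earlier study of the same team and the GS lungs had not, and none of the 27 libraries comes from a lung perfused without either perfusate treatment.

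Cells that lack oxygen keep the alpha subunit of the hypoxia inducible factor (HIF), which is otherwise hydroxylated by the EGLN enzymes and destroyed. Stabilised HIF binds short DNA elements with the core ACGTG or GCGTG and raises the transcription of glucose transporters, of glycolytic enzymes and of secreted vasoactive peptides. Several of these genes also respond to inflammatory and glucocorticoid signals, and HIF1A itself is controlled mostly at the protein level, which RNA does not show. In the lung, adrenomedullin, encoded by ADM, acts on endothelial cells and tightens the capillary barrier.

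HK2, PFKFB3 and ADM were the members called for a change from 0h with all libraries. In the GS group HK2 and ADM rose by 6h, and HK2, PFKFB3 and ADM were all higher at 12h than at 0h, that is 2 and 3 of the 8 where 5.50% and 6.99% of all genes were called higher. In the PD group the same 3 genes passed the test at 12h, where 3.22% of all genes were called higher, and 0 of the 8 did at 6h by edgeR, where 0.135% were (4 of the 8 had an unadjusted p under 0.05, and DESeq2 called 2). With only the libraries of 0h and 6h, edgeR called 2 of the 8 and 139 of all genes. The PD calls at 12h fell to 0 of 8 without PD pig 3, without PD pig 5 and with only the libraries of 0h and 12h. No member was called lower in either group at either time, against 5.56% and 8.66% of all genes at 6h and 12h in GS and 0.00643% and 2.76% in PD. The difference between the groups in these changes did not pass correction for any member. By the exact Wilcoxon test and by edgeR, 0% of all 17884 genes tested passed at 6h or at 12h.

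The counts on genes ran from 26335584 to 67522703 per library in GS and from 14650700 to 21820935 in PD. Every PD library was shallower than every GS library, and RNA had been extracted by either of 2 methods that the labels do not assign to samples, so the group, the depth and any batch cannot be told apart. Values are CPM, that is counts scaled to a common library size after TMM normalisation, and levels are compared within a gene only. A pair of PD libraries stood apart, PD pig 4 at 0h and PD pig 2 at 12h. Their median correlation with the other libraries of the group was 0.866 in both, against 0.913 to 0.937 in the other 10 PD libraries and 0.928 to 0.955 in GS. Long non-coding RNA took 3.75% and 2.70% of their counts, against 0.638% to 2.31% in the other PD libraries, and counts of calls in PD are given with and without them.

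The biopsies held RNA of alveolar and endothelial cells. SFTPC and SFTPA1 of alveolar type 2 cells were present at 1749 CPM or more and at 1263 CPM or more in every library, AGER of alveolar type 1 cells at 349 CPM or more, and the endothelial PECAM1 at 464 CPM or more. Of the mesothelial markers only WT1 was found, at 0 to 3.34 CPM. In such bulk samples, fewer cells of a type and less RNA per cell cannot be told apart.

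**Figure D1:**
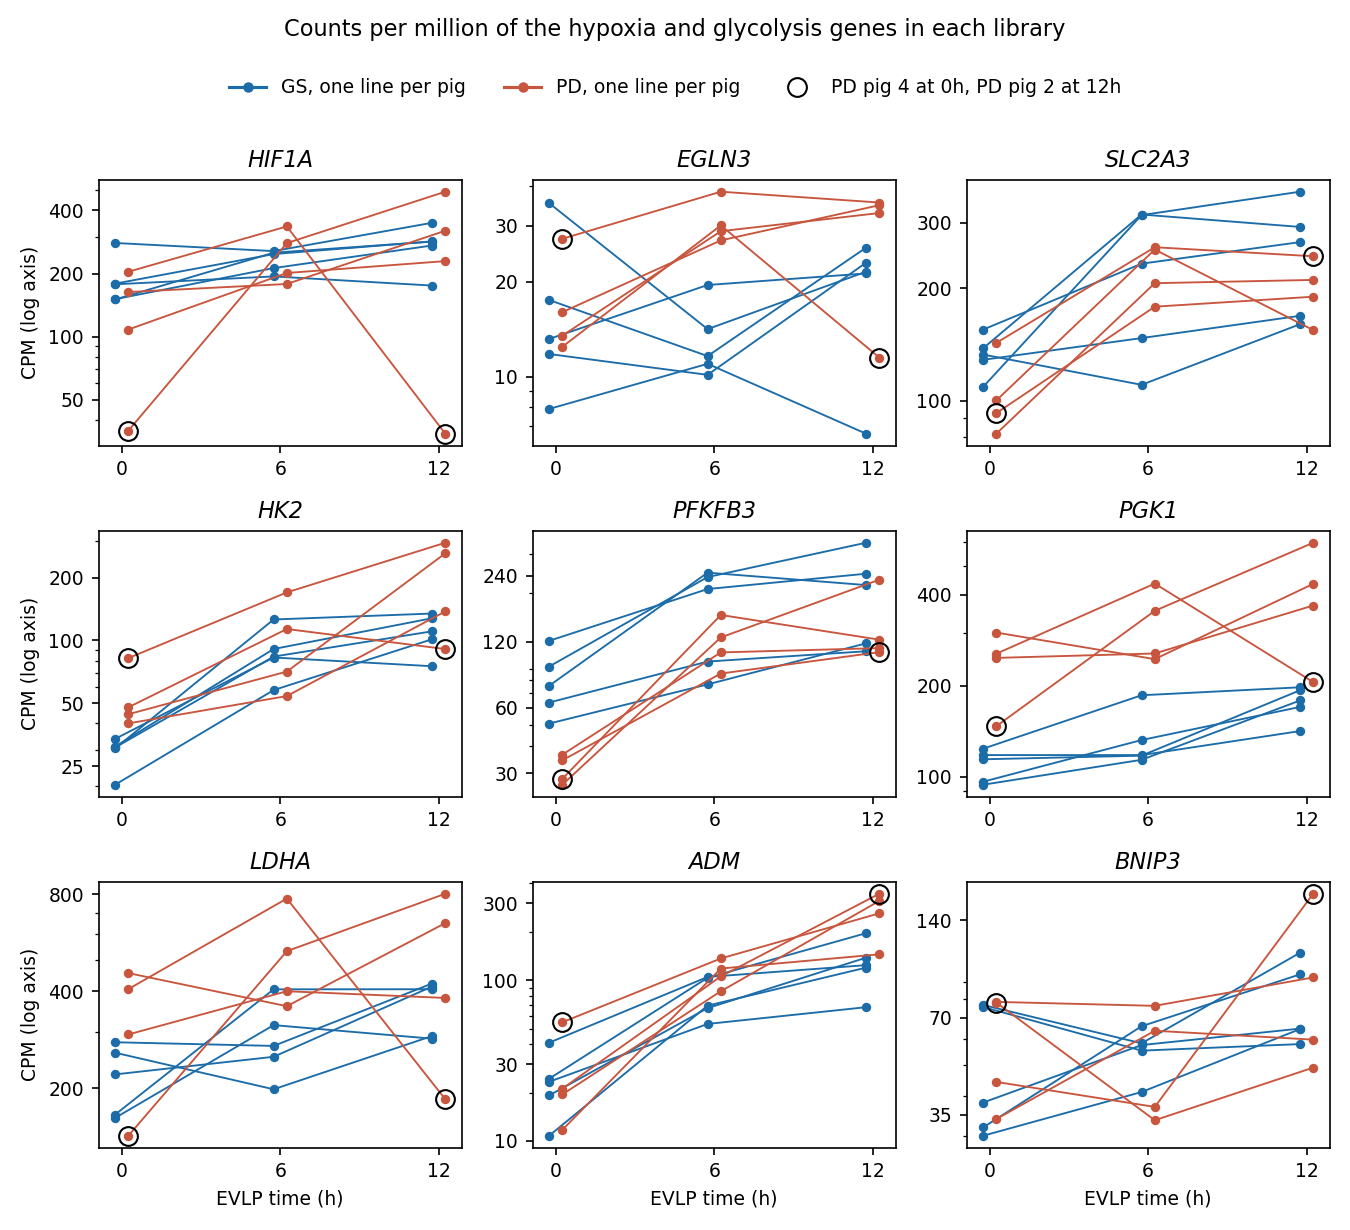
CPM (log axis) of the 8 named members and SLC2A3 at 0h, 6h and 12h of EVLP, with 1 line for each of the 5 GS pigs and 4 PD pigs and open black circles around PD pig 4 at 0h and PD pig 2 at 12h. The 6h points of HK2, PFKFB3 and ADM lay above the 0h point of the same pig in all 9 pigs, while HIF1A was at 35.7 and 34.5 CPM in the circled libraries.

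Since HK2, PFKFB3 and ADM were called in both groups at 12h, and PGK1 was higher in PD than in GS at all 3 times, the DNA just upstream of these genes is shown with its matches to the HIF core. The 250 bases before the gene start of the table were read from the RefSeq copy of the Sscrofa11.1 genome, the build the counts were made on, and are written in the direction of transcription with the letters ACGTG or GCGTG, or their reverse complements CACGT and CACGC, in capitals. The windows are chr3:68231616-68231865 (minus strand) for HK2, chr10:64859052-64859301 (minus strand) for PFKFB3, chr2:49231867-49232116 (minus strand) for ADM and chrX:62187181-62187430 (plus strand) for PGK1.
HK2: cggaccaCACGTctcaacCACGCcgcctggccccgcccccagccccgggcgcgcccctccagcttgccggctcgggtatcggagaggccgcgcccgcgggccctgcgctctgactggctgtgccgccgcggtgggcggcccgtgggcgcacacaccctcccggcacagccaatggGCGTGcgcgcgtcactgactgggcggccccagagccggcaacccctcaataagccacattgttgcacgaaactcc
PFKFB3: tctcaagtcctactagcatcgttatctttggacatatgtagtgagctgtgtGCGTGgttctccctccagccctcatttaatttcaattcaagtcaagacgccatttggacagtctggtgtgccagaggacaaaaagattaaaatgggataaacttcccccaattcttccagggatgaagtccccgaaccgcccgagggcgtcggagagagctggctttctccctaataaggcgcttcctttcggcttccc
ADM: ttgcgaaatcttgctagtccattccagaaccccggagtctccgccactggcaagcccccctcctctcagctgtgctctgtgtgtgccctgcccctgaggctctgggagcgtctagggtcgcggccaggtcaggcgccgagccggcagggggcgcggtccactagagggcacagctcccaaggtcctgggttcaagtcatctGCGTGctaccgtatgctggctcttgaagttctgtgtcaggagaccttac
PGK1: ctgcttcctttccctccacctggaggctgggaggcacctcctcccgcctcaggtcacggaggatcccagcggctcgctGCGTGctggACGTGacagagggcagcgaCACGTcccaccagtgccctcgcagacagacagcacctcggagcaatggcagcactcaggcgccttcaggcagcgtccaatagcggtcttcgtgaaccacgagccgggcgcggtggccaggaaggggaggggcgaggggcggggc

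In these windows PGK1 had 2 matches to ACGTG and 1 to GCGTG, the nearest of them 140 bases before the start. HK2 had 1 and 2, and ADM had a single GCGTG, 45 bases before its start. PFKFB3 also had 1 GCGTG, BNIP3 had 5, SLC2A3 had 1 ACGTG, and HIF1A had 3 ACGTG and 1 GCGTG, of which 2 share the palindrome CACGTG. LDHA and EGLN3 had neither. At least 1 match was thus found in the windows of 7 of the 9 genes. Of 20273 protein-coding genes, 42.9% had one in a window of the same length (18.2% for ACGTG and 32.1% for GCGTG). The windows of LDHA and EGLN3 held 38.4% and 60.8% G and C, and the others 49.6% (PFKFB3) to 84.4% (BNIP3). Both cores contain CG, and the part of base composition in these matches was not tested. The starts in the table and in RefSeq lie 13 to 569 bases apart for these genes. RefSeq puts the start of LDHA 569 bases further upstream, so the LDHA window lies inside the RefSeq gene. The RefSeq starts of SLC2A3, BNIP3 and PFKFB3 also lie further upstream, by 215, 70 and 67 bases. The SLC2A3 match, at 135 to 139 bases, thus lies inside the RefSeq gene. A match or its absence describes the letters of this window only, and the other windows are not printed.

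The first question was how the genes moved during EVLP with the standard perfusate replacement. HK2 (ENSSSCG00000008261, chromosome 3, 68145890 to 68231615, minus strand) encodes hexokinase 2, the inducible enzyme that phosphorylates glucose in the first step of glycolysis. In GS it was at 31.0, 30.4, 30.7, 20.4 and 33.8 CPM at 0h in pigs 9, 17, 44, 55 and 77. At 6h it was at 90.9, 125.9, 83.7, 57.8 and 82.8 CPM, and at 12h at 127.7, 134.5, 110.5, 101.3 and 75.2 CPM. All 5 pigs rose and the values at 6h did not overlap those at 0h. The log2 fold change was 1.53 ± 0.16 (SE, 5 pigs) at 6h and 1.83 ± 0.16 at 12h, a fold change (FC) of 2.88 and 3.55, with adjusted p of 0.000139 and 3.77e-05 by edgeR's quasi-likelihood test with Benjamini-Hochberg adjustment over 18594 genes.

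PFKFB3 (ENSSSCG00000011133, chromosome 10, 64776315 to 64859051, minus strand) makes fructose 2,6-bisphosphate, the strongest activator of phosphofructokinase. In GS it was at 63.2, 50.7, 121.0, 92.3 and 75.4 CPM at 0h. At 6h it reached 97.3, 76.5, 208.6, 236.5 and 247.7 CPM, and at 12h 108.4, 117.8, 245.0, 339.3 and 217.4 CPM. Pigs 9 and 17 stayed below the other GS pigs at 6h and at 12h, although each pig was above its own value at 0h. The log2 fold change at 6h was 0.97 ± 0.17 (FC 1.96, adjusted p 0.00194 by edgeR), just under the FC of 2 required for a call, and at 12h it was 1.20 ± 0.17 (FC 2.29, adjusted p 0.000368).

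ADM (ENSSSCG00000013408, chromosome 2, 49229223 to 49231866, minus strand) encodes adrenomedullin, a secreted vasodilator peptide. In GS it was at 23.3, 19.2, 10.8, 40.9 and 24.4 CPM at 0h, and at 53.4, 67.0, 69.4, 104.8 and 103.5 CPM at 6h. At 12h it stood at 67.9, 138.0, 119.7, 124.0 and 196.0 CPM. None of the 6h or 12h values reached down to the highest 0h value. The log2 fold change was 1.74 ± 0.24 at 6h and 2.40 ± 0.25 at 12h (FC 3.34 and 5.29, adjusted p 0.000598 and 7.14e-05 by edgeR).

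Of the 8 named members, 2 were called higher at 6h in GS and none lower, where 5.50% of all genes tested were called higher and 5.56% lower. At 12h the count was 3 higher and none lower, against 6.99% and 8.66% of all genes. With any one GS pig left out, 2 to 3 were called at 6h and 3 at 12h. The median log2 fold change of the 8 was 0.33 at 6h and 0.64 at 12h, while that of all genes tested was −0.05 and −0.08. Without the FC threshold, 7 of the 8 were higher at 12h, all but EGLN3, and 17.6% of all genes were. The 4 added in that way changed by less than the threshold. With any one GS pig left out, 4 to 6 of the 8 were higher in this sense. Of all genes, 2275 of 18303 (without GS pig 44, the lowest share) to 3816 of 18839 (without GS pig 9, the highest) were. HIF1A, the oxygen-regulated subunit, had a log2 fold change of 0.47 ± 0.14 (adjusted p 0.0205 by edgeR). LDHA, which turns pyruvate into lactate, had 0.65 ± 0.20 (adjusted p 0.0209). PGK1, which makes ATP in the payoff phase of glycolysis, had 0.61 ± 0.13 (adjusted p 0.00251), and BNIP3, a mitophagy receptor, had 0.62 ± 0.23 (adjusted p 0.0471). Over the 5 fits without 1 GS pig the adjusted p rose to as much as 0.104 for HIF1A, 0.0555 for LDHA and 0.173 for BNIP3, and to no more than 0.0186 for PGK1.

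HIF1A in GS ranged from 150.4 to 279.6 CPM at 0h, from 193.8 to 255.9 at 6h and from 175.3 to 349.0 at 12h, with overlapping values at all 3 times. EGLN3, the prolyl hydroxylase whose transcript is a textbook HIF target, ranged from 7.91 to 35.4 CPM at 0h and from 6.60 to 25.6 at 12h. Its log2 fold change was −0.25 ± 0.29 at 6h and 0.18 ± 0.29 at 12h, and its sign at either time turned when 1 pig was left out. The glucose transporter gene SLC2A3 (ENSSSCG00000022925, chromosome 5, 62963643 to 63041740, minus strand) was at 108.9 to 155.1 CPM at 0h and at 160.4 to 363.3 CPM at 12h in GS. The latter values lay above all of the former, and the log2 fold change was 0.73 ± 0.21 (adjusted p 0.0158 by edgeR), under the FC threshold.

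**Figure D2:**
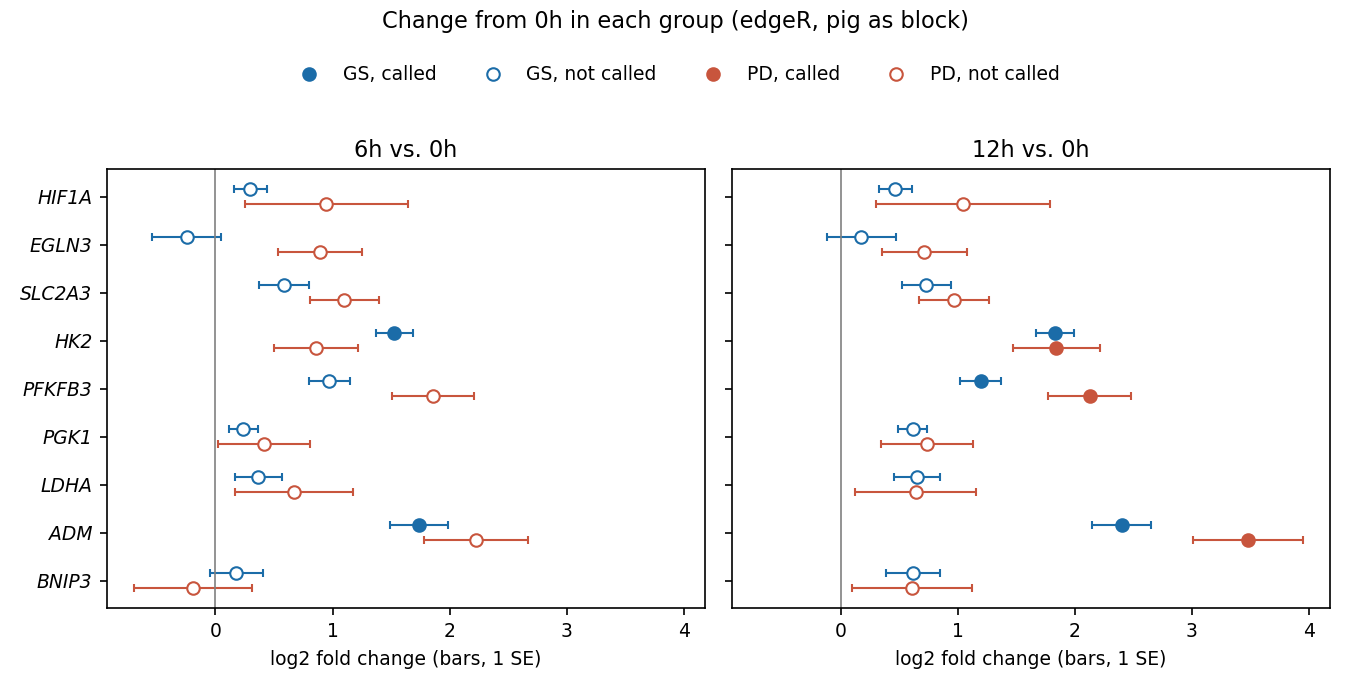
Log2 fold change against 0h at 6h (left) and 12h (right) of the 8 named members and SLC2A3 in GS and PD, with bars of 1 SE and filled points for called genes. HK2, PFKFB3 and ADM were called in both groups at 12h, and the bars of the PD group were wider for each gene shown.

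The same question was asked of lungs on dialysis. In PD, HK2 was at 47.8, 44.3, 82.3 and 40.04 CPM at 0h in pigs 2, 3, 4 and 5, at 113.4, 70.9, 169.8 and 54.1 CPM at 6h, and at 90.9, 261.3, 293.7 and 137.7 CPM at 12h. Each pig was above its 0h value at both times, and PD pig 2 was lower at 12h than at 6h. The log2 fold change was 0.86 ± 0.36 at 6h (SE, 4 pigs; adjusted p 0.494 by edgeR over 15545 genes) and 1.84 ± 0.37 at 12h (FC 3.59, adjusted p 0.0235).

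PFKFB3 in PD was at 34.5, 36.6, 28.4 and 26.7 CPM at 0h, at 85.8, 107.1, 158.8 and 125.4 CPM at 6h, and at 107.4, 112.1, 122.5 and 230.0 CPM at 12h. All values at 6h and 12h lay above those at 0h, including the libraries that stood apart. The log2 fold change was 1.86 ± 0.35 at 6h (FC 3.62, adjusted p 0.0746 by edgeR) and 2.13 ± 0.36 at 12h (FC 4.37, adjusted p 0.0176).

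ADM in PD was at 21.2, 11.7, 54.7 and 19.5 CPM at 0h, at 105.6, 118.1, 136.5 and 85.3 CPM at 6h, and at 344.8, 144.9, 260.4 and 311.0 CPM at 12h. The times did not overlap, and the 12h values all exceeded the highest at 6h. With a log2 fold change of 2.23 ± 0.45 at 6h (FC 4.68, adjusted p 0.0827 by edgeR) and 3.48 ± 0.47 at 12h (FC 11.13, adjusted p 0.0136), ADM had the largest change of the 8 in PD at both times.

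At 6h in PD 0 of the 8 members were called by edgeR, where 0.135% of all genes tested were called higher and 0.00643% lower. At an unadjusted p under 0.05, 4 of the 8 were different against 9.41% of all genes, and DESeq2 called 2, PFKFB3 and ADM, against 2.30% of all genes. Other edgeR fits called 2 of the 8 with only the libraries of 0h and 6h, with no filter on low counts and with all 27 libraries in one fit. In these fits 139, 103 and 479 of all genes were called. With no replicate block 1 of the 8 and 100 of all genes were called. At 12h 3 were called higher and none lower, against 3.22% and 2.76% of all genes. These 3 calls were lost when PD pig 3 or PD pig 5 was left out, with 0 called among the 8 and among all genes, and when only the libraries of 0h and 12h were fitted, with 0 of the 8 and 4 of all genes called. DESeq2 called 3 of the 8 and 14.6% of all genes. The median log2 fold change of the 8 was 0.87 at 6h and 0.89 at 12h, against −0.02 and −0.05 for all genes.

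HIF1A had its lowest values in the libraries that stood apart. It was at 204.0, 163.3, 35.7 and 108.2 CPM at 0h in PD, at 335.3, 178.3, 279.3 and 201.2 CPM at 6h, and at 34.5, 319.9, 490.9 and 229.2 CPM at 12h, so that both low values belonged to these libraries. LDHA was lowest in the same libraries as well, with 142.8 CPM in PD pig 4 at 0h and 185.2 CPM in PD pig 2 at 12h, and PGK1 was at 147.1 and 205.8 CPM there, each the lowest of its time in PD. BNIP3 was instead highest in PD pig 2 at 12h, at 169.3 CPM against 49.0 to 93.2 CPM. Cell markers also stood out there, without going one way within a list. Of the alveolar type 2 markers, SFTPC was at 70690 CPM in PD pig 4 at 0h and 77429 CPM in PD pig 2 at 12h, the highest PD values of their time, while SFTPB (226 and 224 CPM) and SFTPA1 (1263 and 1540 CPM) were the lowest. Of the neutrophil markers, S100A12 was highest in both libraries (909 and 1021 CPM), and CXCR2 was lowest in PD pig 2 at 12h (7.67 CPM). The erythroid markers summed to 227 and 336 CPM there, against 51.5 to 137 CPM in the other PD libraries at 0h and 7.94 to 11.8 CPM at 12h. Mitochondrial genes took 1.65% of the counts of PD pig 2 at 12h and 5.95% to 8.84% in the other PD libraries at 12h, while PD pig 4 at 0h had 8.61%, within the 4.97% to 11.13% of the others at 0h. The part of these markers and shares in these values was not tested.

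Left out together, an alternative added after the data had been seen, these libraries gave 3 of 8 members called higher at 6h, where 2.12% of all genes were. EGLN3 (log2 fold change 1.10 ± 0.29, adjusted p 0.0490), PFKFB3 (1.79 ± 0.33, adjusted p 0.00363) and ADM (2.67 ± 0.33, adjusted p 0.000120) were those 3 by edgeR. At 12h, 5 of 8 were called higher against 10.5% of all genes. With all PD libraries EGLN3 had 0.89 ± 0.36 at 6h and 0.72 ± 0.36 at 12h (adjusted p 0.467 and 0.247) and HIF1A 0.95 ± 0.69 and 1.05 ± 0.74 (adjusted p 0.654 and 0.419). Those called at 12h without the pair were HIF1A (1.14 ± 0.32, adjusted p 0.0157), EGLN3 (1.21 ± 0.32, adjusted p 0.0123), HK2 (2.17 ± 0.33, adjusted p 0.000372), PFKFB3 (2.10 ± 0.36, adjusted p 0.00107) and ADM (3.73 ± 0.37, adjusted p 2.64e-05). SLC2A3, with 1.16 ± 0.28 at 6h and 1.02 ± 0.32 at 12h, passed the test at both times in that setting (adjusted p 0.0302 and 0.0308), and with all PD libraries it had 1.10 ± 0.30 and 0.97 ± 0.30 (adjusted p 0.216 and 0.0738).

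From 6h to 12h, in GS 0 of 8 were called by edgeR, as were 0% of all genes, and 2 of 8 had an unadjusted p under 0.05, against 4.74% of all genes. These were ADM (log2 fold change 0.66 ± 0.24) and PGK1 (0.38 ± 0.12), and all 8 differences were above 0. In PD 0 of 8 and again 0% of all genes were called, with HK2 (0.99 ± 0.37) and ADM (1.25 ± 0.43) at an unadjusted p under 0.05, as had 1562 of 15545 genes. DESeq2 called 0 of the 8 in either group, against 0.0216% (GS) and 1.31% (PD) across the table. Without the libraries that stood apart, HK2 (1.28 ± 0.29, adjusted p 0.0249) and ADM (1.06 ± 0.30, adjusted p 0.0495) were called higher at 12h than at 6h in PD, that is 2 of 8 where 2.04% of all genes were.

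The second question was whether dialysis changed these responses. The log2 ratio of each pig to its own 0h value was taken from rlog values, and the 4 PD pigs were set against the 5 GS pigs by a two-sided Wilcoxon test with exact p. The smallest p that this design allows is 0.0159, and the smallest adjusted p over the 17884 genes was 0.508 at 6h and 0.734 at 12h, so 0 of the 8 members and 0% of all genes passed at 6h and at 12h. At an unadjusted exact p under 0.05, 1 of 8 members differed at 6h against 5.94% of all genes, and 0 of 8 at 12h against 3.95%. By the edgeR and DESeq2 tests of the interaction, 0 of 8 were called at either time, as were 0% of all genes by edgeR and 0.0355% at 6h and 0.0692% at 12h by DESeq2.

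The one member was HK2, whose ratio to 0h was smaller in PD at 6h. On the log2 CPM scale its ratio to 0h was 1.57 ± 0.29 in GS (SD, n = 5, from 1.29 to 2.05) and 0.85 ± 0.36 in PD (SD, n = 4, from 0.43 to 1.25). The rlog difference of PD minus GS was −0.42 (exact Wilcoxon p 0.0317, adjusted p 0.534). In the edgeR interaction of group and time the difference was −0.69 (95% interval −1.43 to 0.06, unadjusted p 0.0682, adjusted p 0.783). At 12h the difference was −0.02 (−0.76 to 0.72).

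In the edgeR interaction, 2 of 8 members had an unadjusted p under 0.05 at 6h, against 5.85% of all genes, and 2 of 8 at 12h, against 5.98%, and none passed adjustment. PFKFB3 differed by 0.87 (95% interval 0.12 to 1.61, adjusted p 0.783) at 6h and by 0.90 (0.16 to 1.65, adjusted p 0.774) at 12h. EGLN3 differed by 1.12 (0.16 to 2.08, adjusted p 0.783) at 6h, where the ratio to 0h was above 1 in 4 of 4 PD pigs and below 1 in 3 of 5 GS pigs. ADM differed by 1.05 (0.06 to 2.04, adjusted p 0.826) at 12h. The exact Wilcoxon p of these 4 differences lay between 0.0635 and 0.190. For HIF1A, LDHA, PGK1 and BNIP3 the intervals covered 0 at both times, and they were as wide as −0.95 to 2.04 for HIF1A at 12h, so a change in PD that is larger by up to 2.04 lies within it.

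Without the pair of PD libraries that stood apart, an alternative added after the data had been seen, the edgeR interaction again called 0 of 8 members and 0% of all genes at either time. At an unadjusted p under 0.05 it had 4 of 8 members at 6h, against 8.34% of all genes, and 4 of 8 at 12h, against 12.8%. HK2 differed by −0.71 at 6h (95% interval −1.31 to −0.10, adjusted p 0.561) and by 0.28 at 12h (−0.36 to 0.93). For PFKFB3 the difference was 0.75 (0.01 to 1.49, adjusted p 0.594) at 6h and 0.84 (0.05 to 1.64, adjusted p 0.367) at 12h. For EGLN3 it was 1.28 (0.40 to 2.15, adjusted p 0.526) and 0.98 (0.05 to 1.91, adjusted p 0.367), and for ADM 0.87 (0.04 to 1.70, adjusted p 0.579) and 1.28 (0.39 to 2.18, adjusted p 0.266). HIF1A differed by 0.20 (−0.34 to 0.74, adjusted p 0.835) and 0.62 (0.04 to 1.20, adjusted p 0.367), with intervals narrower than with all libraries. LDHA, PGK1 and BNIP3 again had intervals that covered 0.

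**Figure D3:**
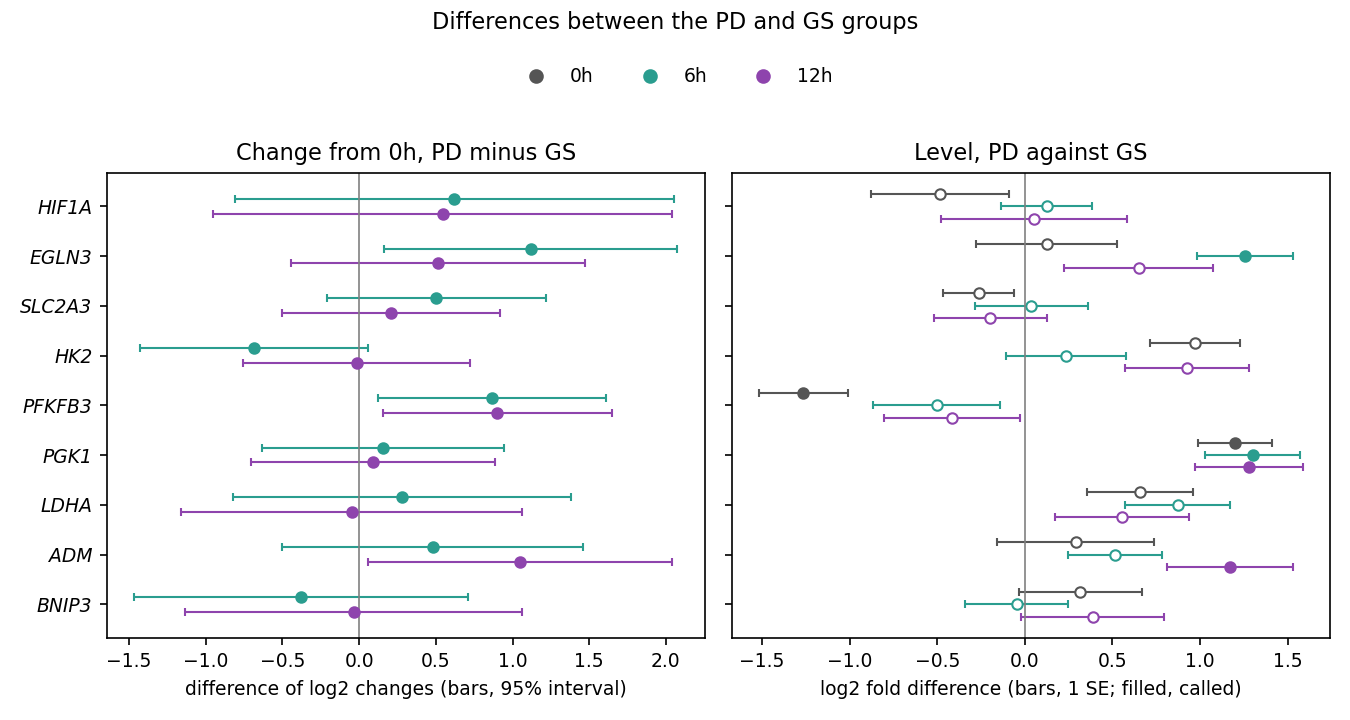
Left, difference between PD and GS in the log2 change from 0h at 6h and 12h (edgeR interaction, bars of the 95% interval). Right, log2 difference in level between PD and GS at 0h, 6h and 12h (bars of 1 SE, filled points called). PFKFB3 began lower and PGK1 higher in PD at 0h, before perfusion, and the intervals of HIF1A, LDHA, PGK1 and BNIP3 in the left panel include 0.

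The groups already differed at 0h, before any perfusion. Long non-coding RNA took 1.10% to 3.75% of the counts in PD at 0h and 0.705% to 0.786% in GS, without overlap, and 0.795% to 1.003% in PD at 6h, and its part in these differences and in the PD changes from 0h was not tested. PFKFB3 was lower in PD, at 26.7 to 36.6 CPM against 50.7 to 121.0 CPM in GS, without overlap (log2 difference −1.26 ± 0.25, adjusted p 0.00197 by edgeR). PGK1 (ENSSSCG00000012440, chromosome X, 62187431 to 62212244, plus strand) was higher in PD, at 147.1 to 300.2 CPM against 94.2 to 124.0 CPM (1.20 ± 0.21, adjusted p 0.000907). HK2 was at 40.04 to 82.3 CPM in PD and at 20.4 to 33.8 CPM in GS, a log2 difference of 0.97 ± 0.26 (adjusted p 0.0101) that stayed under the FC threshold. These 2 of 8 calls stand against 29.1% of all genes called in either direction at 0h. Without PD pig 4, whose 0h library stood apart, PFKFB3 (−1.23) and PGK1 (1.36) were called and HK2 had 0.66. With 1 pig left out HK2 ranged up to 1.10 and was called without GS pig 9 or 77 or PD pig 2, 3 or 5.

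At 6h, 2 of 8 members were called against 21.1% of all genes. EGLN3 was at 26.9995 to 38.5 CPM in PD and 10.1 to 19.5 CPM in GS (log2 difference 1.26 ± 0.27, adjusted p 0.00705 by edgeR), and PGK1 was again higher in PD (1.30 ± 0.27, adjusted p 0.00574). At 12h, 2 of 8 were called against 19.3% of all genes, namely PGK1 (1.28 ± 0.31, adjusted p 0.0141) and ADM (1.17 ± 0.36, adjusted p 0.0401). PGK1 did not overlap between the groups at any of the 3 times, with 205.8 CPM as the lowest PD value and 197.9 CPM as the highest GS value at 12h. The call for ADM was lost when the library of any one of GS pigs 9, 17, 44 or 55 or of PD pigs 2, 4 or 5 was left out (log2 difference 0.96 to 1.39 and adjusted p 0.0229 to 0.102 over the 9 fits without 1 pig, the lowest difference being that without PD pig 2, whose 12h library stood apart). Without that pig HK2 was called in its place (log2 difference 1.152, adjusted p 0.0140 by edgeR). PFKFB3 was no longer called at 6h (−0.50 ± 0.36, adjusted p 0.323) or at 12h (−0.42 ± 0.39, adjusted p 0.475).

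Markers of other cells differed along with the groups. The summed CPM of 4 alveolar type 2 markers was 6359 to 9107 at 0h in GS and 25303 to 72568 in PD. In PD that sum was mostly SFTPC, called higher than in GS at 0h (log2 difference 3.56 ± 0.40, adjusted p 4.94e-05 by edgeR), while SFTPB was called lower (−1.35 ± 0.38, adjusted p 0.0132) and SFTPA1 and ABCA3 were not called. At 12h again 1 of the 4 was called higher and 1 lower, with a median of −0.18. The 6 erythroid markers summed to 0.855 to 11.12 CPM at 0h in GS and 51.5 to 227 CPM in PD, the 7 macrophage markers to 3256 to 6289 and 2067 to 2812 CPM, and the 6 endothelial markers to 1901 to 2727 and 1136 to 1689 CPM. Of the erythroid markers 2 were tested at 0h and 1 was called higher in PD. HBB ran up to 324 CPM over all libraries, and each other erythroid marker to 5.50 CPM or less. Of the macrophage markers 3 had a difference above 0, and 2 were called lower. Of the endothelial markers 1 was called higher and 2 lower, where 29.1% of all genes were called in either direction. The 5 neutrophil markers found summed to 176 to 458 CPM in GS and 640 to 1207 CPM in PD at 0h through S100A8 and S100A12, both called higher, whereas CSF3R was called lower and the median log2 difference of the list was −0.70. At 12h S100A8 was called higher and CSF3R and CXCR2 lower, with a median of −1.30. The part of these markers in the differences in level between the groups was not tested. The marker sums also moved over time. The lymphocyte markers had medians of 224 CPM at 0h, 167 at 6h and 149 at 12h in GS and 174, 106 and 88.7 CPM in PD. The erythroid median was 5.07, 1.64 and 2.69 CPM in GS, and in PD it was lower at each later time, at 132, 34.4 and 10.8 CPM. The neutrophil median was 393, 263 and 370 CPM in GS and 745, 358 and 443 CPM in PD. For alveolar type 2 cells it was 8271, 9544 and 12067 CPM in GS and 41043, 23481 and 23190 CPM in PD, thus higher at 12h than at 0h in GS and lower in PD. The endothelial median was 2496, 2474 and 2580 CPM in GS and 1630, 2164 and 1890 CPM in PD, that of macrophages 3486, 5445 and 4800 CPM in GS and 2665, 2216 and 2266 CPM in PD, and that of smooth muscle and fibroblasts 4573, 5029 and 4383 CPM in GS and 3944, 4259 and 2557 CPM in PD. Of the 7 macrophage markers, 3 had a log2 fold change above 0 in GS at 6h and 3 at 12h (medians −0.02 and −0.002). The macrophage sum at 6h was below that at 0h in GS pigs 9 (2983 against 3830 CPM) and 17 (2655 against 3256 CPM) and above it in pigs 44, 55 and 77. Of the 6 smooth muscle and fibroblast markers, 3 were above 0 in GS at 6h (median −0.15). Alveolar type 1 cells had 1147, 1536 and 1618 CPM in GS and 1180, 1493 and 1802 CPM in PD, and airway cells 247, 402 and 156 CPM in GS and 1333, 1134 and 2153 CPM in PD. The airway sums did not follow the single genes. Of the 4 airway markers, 0 had a log2 fold change above 0 in GS at 6h and 0 at 12h (medians −0.52 and −0.87). In PD these counts were 0 at 6h and 1 at 12h (medians −0.61 and −0.10). The part of these markers in the changes of the members was not tested either.

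The wider pathway was described with lists of genes other than the members. In PD at 12h no gene of the 4 pathway lists was called without PD pig 3, without PD pig 5 or in the fit of only 0h and 12h, and without PD pig 4 only STC2 and CA12 were. Without PD pig 3 and without PD pig 5 the log2 fold changes at 12h were 1.81 and 1.64 (ELOC), 3.39 and 3.23 (STC2) and 2.65 and 3.06 (CA12). They were 1.75 and 1.54 for BHLHE40 and 1.44 and 1.37 for ACKR3. The values of these genes with all PD libraries are given below. Of 11 HIF subunits and regulators tested, 0 were called in GS at 6h or 12h by edgeR, against 5.50% (higher) and 5.56% (lower) of all genes at 6h and 6.99% and 8.66% at 12h. In PD 0 were called at 6h, against 0.135% and 0.00643%, and 1 at 12h, against 3.22% and 2.76%, namely ELOC, a subunit of the VHL ubiquitin ligase (log2 fold change 1.68 ± 0.32, adjusted p 0.0199). Its value in GS at 12h was 0.86 ± 0.13. Without the pair of libraries that stood apart, 0 were called at 6h in PD and 3 at 12h, where 10.5% of all genes were called higher and 10.6% lower. These were ELOC (1.64 ± 0.31) and VHL (1.08 ± 0.32), which rose, and HIF3A, which fell by 1.52 ± 0.45. The list's median log2 fold change lay between −0.09 and 0.25 in the 4 comparisons with 0h.

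Among 25 other glycolysis enzymes and transporters tested in GS, 3 rose and none fell at 6h, where 5.50% of all genes rose and 5.56% fell. They were SLC16A1, a lactate and pyruvate transporter (1.39 ± 0.21, adjusted p 0.000729 by edgeR), PDK4, which holds pyruvate back from mitochondrial oxidation (1.27 ± 0.43, adjusted p 0.0406), and PFKFB2, a relative of PFKFB3 (1.06 ± 0.20, adjusted p 0.00253). At 12h 1 rose and 1 fell, against 6.99% and 8.66% of all genes. SLC16A1 rose (1.56 ± 0.21, adjusted p 0.000228) and ENO2, the neuronal enolase, fell by 1.20 ± 0.16 (adjusted p 0.000216). In PD none of 24 tested was called at either time, against 0.135% (higher) and 0.00643% (lower) of all genes at 6h and 3.22% and 2.76% at 12h. SLC16A1 had 1.12 ± 0.54 and 2.07 ± 0.55 there (adjusted p 0.554 and 0.0511 by edgeR). Without the pair of libraries that stood apart none was called at 6h in PD, where 411 of all genes were. At 12h in that setting SLC16A1 (2.16 ± 0.34) and PFKFB2 (1.25 ± 0.36) rose, and PFKL, PFKFB4 and ENO2 fell, against 10.5% and 10.6% of all genes. The median of the list was −0.22 at 6h and −0.08 at 12h in GS and 0.09 and 0.01 in PD.

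Of 23 other HIF targets, 2 rose at 6h and 4 at 12h in GS and none fell, where 5.50% and 6.99% of all genes rose. STC2, a secreted glycoprotein (2.04 ± 0.39 and 2.35 ± 0.39), and ANGPTL4, an inhibitor of lipoprotein lipase (1.79 ± 0.25 and 1.77 ± 0.25), rose at both times with adjusted p of 0.00288 or less by edgeR. At 12h the third was BHLHE40, a transcriptional repressor (1.27 ± 0.42, adjusted p 0.0288). In PD 0 of 23 were called at 6h and 3 at 12h, all higher, where 0.135% and 3.22% of all genes were called higher. These were STC2 (3.65 ± 0.59, adjusted p 0.0176), CA12, a carbonic anhydrase of the cell surface (3.06 ± 0.47, adjusted p 0.0149), and BHLHE40 (1.75 ± 0.41, adjusted p 0.0342). Without the pair of libraries that stood apart these 3 were called at 6h, where 2.12% of all genes were called higher and 0.505% lower, and at 12h 6 were higher and 2 lower (P4HA2 and MXI1), against 10.5% and 10.6%. BHLHE40 was also called at 6h in PD with only the libraries of 0h and 6h (1.98 ± 0.40, adjusted p 0.0356 by edgeR), where 139 of all genes were. Without PD pig 2 it was called at 6h too (2.37 ± 0.30, adjusted p 0.0142 by edgeR), but not without PD pig 3, 4 or 5. VEGFA and CA9, widely used markers of hypoxia that are named here after their values were seen, were not among the called genes. VEGFA had −0.16 ± 0.23 and −0.14 ± 0.24 in GS at 6h and 12h and 0.29 ± 0.35 and −0.31 ± 0.34 in PD. CA9 had 0.29 ± 0.19 and 0.45 ± 0.19 in GS and −0.64 ± 0.37 and −0.39 ± 0.37 in PD.

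Adrenomedullin signals through CALCRL together with RAMP2 or RAMP3, and ACKR3 takes it up without signalling in the usual way. Of these 4 genes, 0 were called in GS by edgeR at either time, where 5.50% and 6.99% of all genes were called higher and 5.56% and 8.66% lower. In PD 0 were called at 6h, against 0.135% and 0.00643%, and 1 at 12h, against 3.22% and 2.76%, namely ACKR3, which rose (1.33 ± 0.33, adjusted p 0.0395). In GS ACKR3 had 0.74 ± 0.27 at 6h and 0.93 ± 0.27 at 12h, the latter with an adjusted p of 0.0152 and under the FC threshold. CALCRL went the other way in GS, with −0.68 ± 0.23 at 6h and −0.74 ± 0.23 at 12h. Its adjusted p was 0.0417 and 0.0222 by edgeR, and it too stayed under the FC threshold. Without the pair of libraries that stood apart, ACKR3 was called at 6h (1.33 ± 0.31, adjusted p 0.0199) and at 12h (1.25 ± 0.34, adjusted p 0.0146) in PD, and RAMP3 fell by 1.47 ± 0.37 at 12h. That is 1 of 4 genes higher at 6h and 1 higher and 1 lower at 12h, where 411 and 3296 of all genes were called in either direction.

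**Figure D4:**
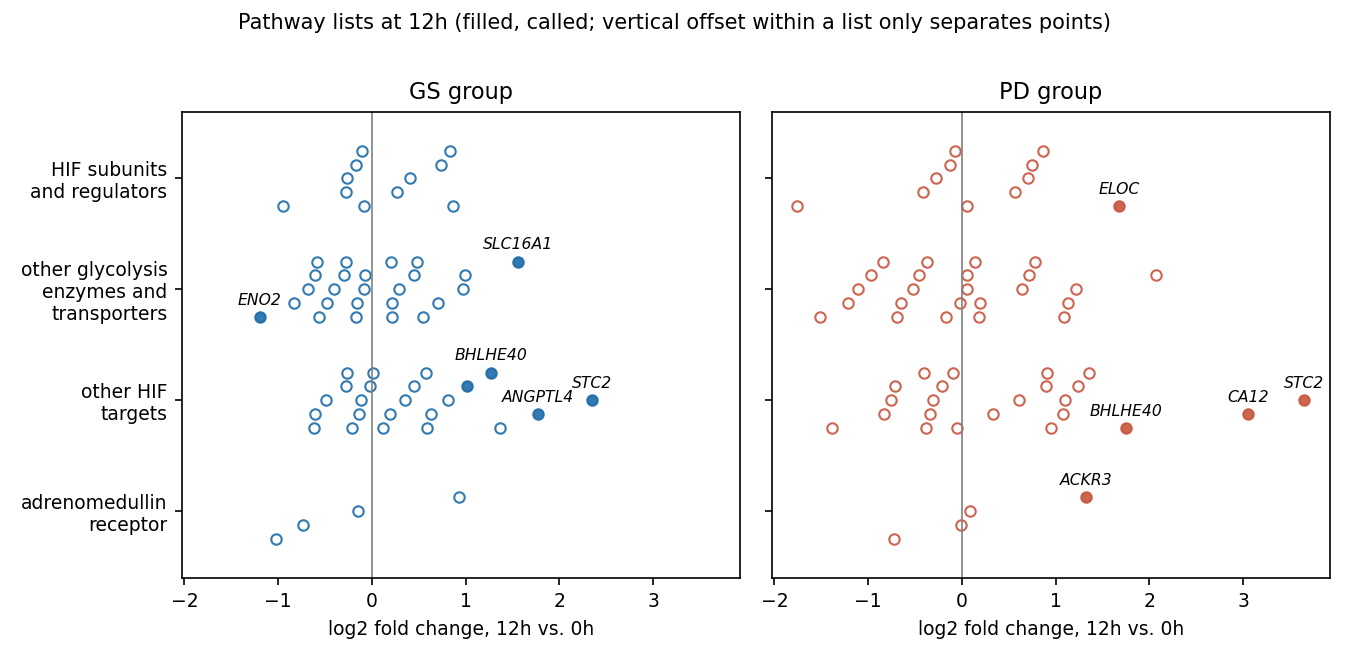
Log2 fold change at 12h against 0h of each gene tested in the 4 pathway lists, in GS (left) and PD (right), with filled points for called genes and names for the 3 largest called changes of a list. STC2 and BHLHE40 were called in both groups, and most points of each list are open.

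The 2 genes with a symbol whose log2 CPM followed each member most closely over the 27 libraries are given as a description, since the libraries share pigs and the groups differ in depth. HK2 went with PPP2R1B (Pearson r 0.93) and the lactate transporter gene SLC16A1 (0.92). PFKFB3 went with PIM1 (0.96) and SZRD1 (0.93), ADM with KCNJ14 (0.91) and SQSTM1 (0.90), and SLC2A3 with SOCS3 (0.93) and NFIL3 (0.92). HIF1A was closest to ZNF22 (0.95) and RAD21 (0.95), PGK1 to ISOC1 (0.96) and PSMD10 (0.95), and LDHA to HBS1L (0.91) and TMED10 (0.91). The closest genes were less alike for EGLN3, with WNT9A (0.79) and SH3GL3 (0.76), and for BNIP3, with ITPK1 (0.82) and RTKN (0.79).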

How the data were processed

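RNA of lung biopsies from 9 pigs was sequenced. The values used are the gene counts that the authors deposited, whole numbers for 31908 Ensembl genes (release 101, Sscrofa11.1). The submitters' processing notes name bcl2fastq 2.2.18.12, cutadapt 1.15, TopHat2 2.0.14 and featureCounts of Subread 1.6.0. The strand counted and the treatment of reads with several places are not given in the sources used here, so antisense and near-identical copies may share counts. All columns were assigned to a sample, and libraries differed by more than sampling noise in each pair (chi-square per degree of freedom at least 36.4). Symbols came from the table (16719), NCBI gene numbers (985) or Ensembl IDs (370).

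The libraries of a group entered one edgeR fit (version 4.0.16, R 4.3.3) after filterByExpr and TMM, with robust quasi-likelihood F tests, two-sided, and the pig as replicate block, since the labels give 3 biopsies per pig. Calls needed an adjusted p (Benjamini-Hochberg, all genes tested) under 0.05 and an FC of at least 2, with no FC threshold for 12h vs. 6h and for the difference between groups. Libraries of the same pig deviated together in GS (mean r 0.52, from 0.35 to 0.73) and less in PD (0.12, from −0.22 to 0.42). The levels of PD and GS were compared at each time without a block. Ratios to 0h were compared with the exact Wilcoxon test on rlog values (DESeq2 1.42.0). CPM used TMM, and log2 CPM a prior count of 0.5. The code was tested on simulated data. The members, lists and tests were chosen with earlier results of these data known. With all libraries of a group, the genes named as called from a pathway list are the 3 with the largest change among those called in a comparison with 0h. Genes named under other settings, or with values that were not called, were picked outside that rule. Of the other HIF targets called at 12h in PD without the pair that stood apart, only the 2 lower ones are named. A gene of the list of other HIF targets is not reported here and was left out of its counts. Columns of annotation were used for names and positions only, and perfusate data were not used here.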

Additional observations from a re-analysis of the deposited data

Results flagged for a closer look

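The change of HK2 by 6h had a PD minus GS difference of −0.42 on the rlog scale, with an unadjusted exact two-sided Wilcoxon p of 0.0317 (5.94% of all genes had such a p under 0.05), and it did not pass correction (adjusted p 0.534). The edgeR interaction gave −0.69 (95% interval −1.43 to 0.06, unadjusted p 0.0682, adjusted p 0.783). The log2 ratio to 0h was above 0 in 5 of 5 GS pigs and 4 of 4 PD pigs.

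Single libraries lay far from the others of their group in 4 of 90 groups of 4 or 5 values examined, and chance alone would do this in about 1 in 20 groups. GS pig 9 had HIF1A at a log2 CPM of 8.13 at 0h, against 7.23 to 7.48 in the other GS pigs. GS pig 55 had HK2 at 4.35 at 0h, against 4.93 to 5.08. EGLN3 at 12h was at 2.73 in GS pig 9, against 4.41 to 4.68 in the other GS pigs, and at 3.53 in PD pig 2, against 5.04 to 5.15 in the other PD pigs. The library of PD pig 2 at 12h is one of the pair that stood apart.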

How the results depend on the processing

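Of the counts of members called, 121 of 144 under another setting stayed within 1.5 times of the value given. These include a 2 that became 3 in GS at 6h. They also include counts of 0 that stayed 0 in comparisons that called 0% of all genes, which cannot show that calls are stable. In PD at 6h the count of 0 (22 of all genes called) became 1 (100) with no replicate block and 2 with only the libraries of 0h and 6h (139), with DESeq2 (408), with no filter on low counts (103) and with all 27 libraries in one fit (479). It was 1 (26), 2 (252) and 3 (411) without PD pig 4 at 0h, without PD pig 2 at 12h and without both. In PD at 12h the count of 3 (930) became 0 (4) with only 2 time points and 5 without PD pig 2 at 12h (4161) or without both libraries (3296), and for 12h vs. 6h the count of 0 (0) became 2 (680) without both. In GS at 12h the count of 3 (2911) became 7 (7136) with no FC threshold. For the PD to GS level at 12h the count of 2 (3179) became 1 (3051) with no filter. Leaving out 1 pig gave 0 to 1 (PD 6h), 0 to 4 (PD 12h) and 1 to 2 (level at 12h). The counts of all genes in these fits are not listed here, except that none was called in PD at 12h without PD pig 3 or PD pig 5. With no replicate block, the pairing by pig left out, the other counts were 2 (1123) and 3 (1896) in GS at 6h and 12h. They were 3 (1460) in PD at 12h and 0 (0) for 12h vs. 6h in both groups. With the block the same counts of members stood beside 2057, 2911, 930 and 0 of all genes.

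Signs of small, uncalled differences turned with the setting, and the cause was not tested. With 1 pig left out, EGLN3 ranged from −0.44 to 0.065 (GS 6h), −0.012 to 0.46 (GS 12h), −0.36 to 0.17 (PD 12h vs. 6h) and −0.22 to 0.54 (level at 0h). BNIP3 ranged from −0.61 to 0.28 (PD 6h), −0.0001 to 1.148 (PD 12h), −0.37 to 0.28 (difference in change at 12h), −0.26 to 0.12 (level at 6h) and −0.15 to 0.60 (level at 12h). HIF1A ranged from −0.35 to 0.64 (PD 12h vs. 6h), −0.34 to 0.85 (change at 12h), −0.042 to 0.26 (level at 6h) and −0.42 to 0.43 (level at 12h). LDHA ranged from −0.35 to 0.47 (PD 12h vs. 6h), −0.012 to 0.45 (change at 6h) and −0.45 to 0.27 (change at 12h), and PGK1 from −0.039 to 0.29 and −0.17 to 0.29 (change at 6h and 12h). SLC2A3 ranged from −0.21 to 0.066 (PD 12h vs. 6h), −0.0057 to 0.24 (change at 12h) and −0.11 to 0.18 (level at 6h), HK2 from −0.10 to 0.22 (change at 12h) and −0.12 to 0.46 (level at 6h), and ADM from −0.37 to 0.56 (level at 0h). Without PD pig 4 at 0h, BNIP3 in PD at 6h was 0.34 and HIF1A in PD at 12h vs. 6h was −0.028, and without both libraries BNIP3 was 0.18. For 12h vs. 6h in PD, EGLN3 was 0.095 and LDHA 0.42 without PD pig 2 at 12h, and 0.12 and 0.35 without both, and HIF1A was −0.16 with 2 time points. The HK2 difference in change at 12h was −0.016 by the edgeR interaction, −0.0031 by DESeq2 and −0.12 on log2 CPM, LDHA and PGK1 in the change at 6h were −0.099 and −0.14 by the edgeR interaction without both libraries, and the SLC2A3 level at 6h was −0.015 with no filter.

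The 15 GS libraries are deeper than the 12 PD libraries, and the part of depth in the calls was not tested. Without the pair of PD libraries that stood apart, the genes called in PD went from 22 to 411 at 6h and from 930 to 3296 at 12h. A call missing in PD does not show a smaller change.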

Other observations

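Members varied together in pairs over the 27 libraries, given as a description since libraries share pigs and group. PFKFB3 and SLC2A3 had the closest log2 CPM (Pearson r 0.84), then LDHA and PGK1 (0.83) and HK2 and ADM (0.76). HIF1A had r of 0.62 with LDHA and 0.14 with ADM, and −0.46 with BNIP3, the lowest of the 36 pairs.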
